A study of Homo sapiens with 2 samples.

Results

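The genes of amino acid and neurotransmitter transporters were examined in insulin-producing cells made from human embryonic stem cells. Members were all probes with 1 annotated gene symbol in the SLC1A, SLC3A, SLC6A, SLC7A, SLC36A or SLC38A families. Symbols that continue after the number, as those of pseudogenes, antisense genes and *SLC7A6OS* do, were left out. This gave 73 probes of 55 genes, out of 47323 probes and 20046 named genes. *SLC7A7* had no named probe and was not analysed here.

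Expression was measured on 2 Illumina bead arrays, 1 for each biological replicate, and both belong to 1 group. The cells came from HUES8, a single human embryonic stem cell line. They had been grown in suspension, differentiated to stage 6 of a protocol for stem-cell-derived beta (SC-beta) cells and, per the labels, sorted as Nkx6.1+/Ins+ before their RNA was taken by MARIS, which recovers RNA from fixed and stained cells. No treated, undifferentiated or adult islet samples were analysed here, so the questions are which transporters were detected and how far the replicates differed. The labels do not say whether the replicates were separate differentiations.

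Amino acid transporters of the plasma membrane supply protein synthesis, feed the glutamate and glutamine pools and, through leucine and arginine, set the activity of the growth kinase mTORC1. In beta cells amino acids also add to insulin release, with arginine entering as a positive charge that depolarizes the membrane and with alanine and glutamine entering together with sodium. Several SLC7 proteins reach the cell surface only when joined to a heavy chain of the SLC3 family. The SLC6 family instead clears transmitters such as GABA, glycine, serotonin and dopamine, and its other members carry amino acids, taurine or creatine.

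All values are normalized intensities as deposited, on a linear scale. A probe was called above background if it exceeded the 95th percentile of 457 olfactory receptor probes on each array, a floor of 18.01 for replicate 1 and 15.9 for replicate 2. Each gene was read at its brightest probe, or, where some probes passed the floor, at the brightest of those. Brightness depends on the probe too, so levels of different genes were not compared. With 1 group of 2 arrays no test could be run, and no p-values are printed.

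The labelled cell type was checked first. *INS* had 16501 on both arrays, whereas *NKX6-1*, the second marker of the sort, gave 78.9 on replicate 1 at its only probe and lay under the floor on replicate 2, at -4.24. All 6 measured beta-cell markers and all 4 measured pan-endocrine markers were above background on both arrays. Of the beta-cell markers 1 differed by 2-fold or more, *IAPP* with 273 and 2107, 7.71-fold higher in replicate 2. Both measured alpha-cell markers and all 4 enterochromaffin and all 4 liver and gut markers were also above background. Of the other lists, 1 of 2 delta-cell, 2 of 3 duct, 3 of 4 neuronal, 2 of 3 blood and 1 of 3 mesenchymal markers were. None of 3 glial, 4 endothelial, 3 acinar and 4 pluripotency markers was above background on both arrays. In these lists *SOX2* (-7.54 and 74.9) passed on replicate 2 only, and *POU5F1* (18.4 and 10.7) and *CPA1* (22.2 and -4.57) on replicate 1 only. In bulk RNA of sorted cells, fewer cells of a type and less RNA per cell cannot be told apart.

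Of the 55 transporter genes, 26 (47.3%) were above background on both arrays, against 46.9% of all named genes. The share of the transporters is therefore near the background. On replicate 1 alone 28 were above it and on replicate 2 alone also 28, against 51.8% and 54.8% of all genes. Another 2 genes passed on replicate 1 only, against 4.77% of all genes, and 2 on replicate 2 only, against 7.82%. The other 25 passed on neither array, with values from -14.0 to 17.3.

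The families differed in how many members were detected. Of the sodium-coupled neutral SLC38A transporters, 10 of 12 were above background on both arrays (83.3%), and of the SLC7A family 8 of 12 (66.7%). The SLC36A family had 2 of 4, the SLC3A heavy chains 1 of 2 and the SLC1A family 2 of 7 (28.6%). In the SLC6A family, which holds the transmitter transporters, 3 of 18 were above background (16.7%). Outside SLC6A the count was 23 of 37 (62.2%). No test stands behind these shares, since genes are not replicates.

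**Figure D1:**
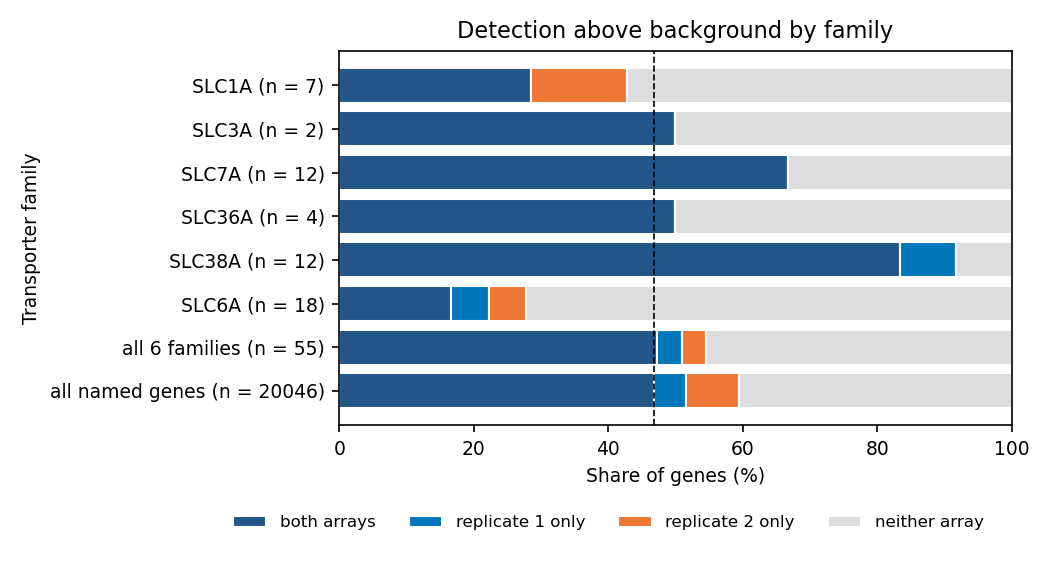
Share of genes (%, horizontal axis) above background on both arrays, on 1 array only or on neither, for each transporter family, for all 55 members and for all 20046 named genes, with n beside each name and a dashed line at the share of all named genes (46.9%). SLC38A (83.3%), SLC7A (66.7%), SLC3A (50%) and SLC36A (50%) lie to the right of the line, and SLC1A (28.6%) and SLC6A (16.7%) to the left.

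The heavy chains and their partners come first, because they set which exchangers can reach the surface. *SLC3A2* encodes 4F2hc (CD98), the heavy chain of the large neutral, cystine and some cationic amino acid exchangers. Its brightest probe had 1067 on replicate 1 and 985 on replicate 2, so both arrays were above background and 1.08-fold apart (1026 ± 57.8, SD, n = 2). Its other probe had 32.3 and -2.50, above background on replicate 1 only. *SLC3A1*, the heavy chain rBAT of kidney and intestine that is mutated in cystinuria, had -5.19 and -7.73 and was above background on neither array.

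Among the measured light chains of *SLC3A2*, 3 of 5 were above background on both arrays. *SLC7A5*, which encodes the leucine and large neutral amino acid exchanger LAT1, had 859 on replicate 1 and 247 on replicate 2. Replicate 2 was the lower, by 3.48-fold (553 ± 433). *SLC7A8*, the broader exchanger LAT2, had 1046 and 555 at 1 of its 3 probes, 1.88-fold lower in replicate 2. Its arrays were in the same order as those of *SLC7A5*, with a difference under 2-fold. *SLC7A6*, which encodes y+LAT2 and exports arginine against neutral amino acids, had 48.6 and 89.8 at 1 of its 2 probes, 1.85-fold higher in replicate 2. Its other probe had 14.1 and 22.1, above background on replicate 2 only.

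The other light chains of *SLC3A2* were not detected. *SLC7A11* encodes xCT, which imports cystine for glutathione synthesis in exchange for glutamate, and had -2.13 and -14.0. *SLC7A10*, the small neutral and D-serine exchanger Asc-1, had -5.51 and 0.382. Both genes have 1 probe each, so no other probe bears on them. Of 6 genes on a list for glutathione synthesis, 4 were above background, against 46.9% of all genes. *GCLC*, the catalytic subunit of the first enzyme of that synthesis, had 441 and 770, and *GCLM*, the modifier subunit, had 105 and 190. *GSS*, glutathione synthetase, had 166 and 144, and *GSR*, glutathione reductase, had 105 and 60.1. *GGT1* and *CHAC1*, which break glutathione down, were above background on neither array.

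The light chains of *SLC3A1* gave 1 gene of 2 above background. *SLC7A9*, which carries cystine and dibasic amino acids in kidney and intestine and is the other cystinuria gene, had 152 on replicate 1 and 35.9 on replicate 2. At 4.23-fold lower in replicate 2, this was the largest difference among the 26 transporter genes above background. Its partner *SLC3A1* was not detected on either array, as given above. Of 4 markers of kidney and intestinal epithelium, 2 were above background on both arrays and both were lower in replicate 2, *ANPEP* with 703 and 17.1 and *VIL1* with 561 and 271. *LRP2* was above background on replicate 2 only and *CUBN* on neither. The summed level of the 4 markers was 1281 on replicate 1 and 304 on replicate 2, and their part in the *SLC7A9* difference was not tested. *SLC7A13*, which pairs with *SLC3A1* in the kidney, had -14.0 and -13.3.

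The cationic amino acid transporter branch of SLC7 needs no heavy chain, and 4 of its 5 genes were above background. *SLC7A1*, the widely expressed arginine and lysine transporter CAT1, had 818 and 898 (858 ± 56.7). Both arrays were above background, and 1.10-fold apart. *SLC7A2*, which encodes the CAT2 transporters, had 2559 and 2464 at 1 of its 3 probes (2511 ± 67.2), while its other probes had 1.31 and 3.18, and -16.0 and -8.07. *SLC7A14*, a lysosomal member of the branch, had 133 and 96.3, 1.38-fold lower in replicate 2. *SLC7A4*, for which transport activity has been hard to show, had 25.4 and 46.2. *SLC7A3*, the CAT3 gene, was at most at 4.67 over both probes and arrays.

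Promoter sequence is shown for 4 of these genes, because amino acid lack and oxidative stress are known to act on transporter genes through short elements near the start. The windows are the 250 bases before a transcription start in the RefSeq table of GRCh38.p14, which held 59 windows for 42 of the 55 genes. Capitals mark matches on either strand to TGATGNAA, the composite element at which the stress factor ATF4 binds, or to TGACNNNGC, the core of the antioxidant response element. *SLC1A5*, a glutamine exchanger described further on, is shown at the 1 of its 3 annotated starts that holds TGATGNAA. *SLC3A2* has its match at 1 of 3 starts, and the other genes have a single window.
SLC1A5, chr19:46784815-46785064, minus strand: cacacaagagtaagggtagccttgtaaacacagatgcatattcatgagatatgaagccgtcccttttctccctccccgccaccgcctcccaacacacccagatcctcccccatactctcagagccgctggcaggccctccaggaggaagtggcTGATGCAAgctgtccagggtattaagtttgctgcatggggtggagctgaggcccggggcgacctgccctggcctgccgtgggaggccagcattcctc
SLC3A2, chr11:62881449-62881698, plus strand: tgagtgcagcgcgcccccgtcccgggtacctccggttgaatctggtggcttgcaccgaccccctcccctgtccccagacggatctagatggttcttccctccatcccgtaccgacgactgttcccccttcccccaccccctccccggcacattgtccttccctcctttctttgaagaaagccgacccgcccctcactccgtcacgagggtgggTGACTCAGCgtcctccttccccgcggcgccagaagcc
SLC7A1, chr13:29595689-29595938, minus strand: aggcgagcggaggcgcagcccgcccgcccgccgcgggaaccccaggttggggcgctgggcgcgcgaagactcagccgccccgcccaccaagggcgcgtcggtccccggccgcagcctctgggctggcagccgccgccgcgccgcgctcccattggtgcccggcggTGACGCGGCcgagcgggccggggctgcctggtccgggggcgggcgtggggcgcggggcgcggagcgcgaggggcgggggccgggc
SLC7A6, chr16:68264276-68264525, plus strand: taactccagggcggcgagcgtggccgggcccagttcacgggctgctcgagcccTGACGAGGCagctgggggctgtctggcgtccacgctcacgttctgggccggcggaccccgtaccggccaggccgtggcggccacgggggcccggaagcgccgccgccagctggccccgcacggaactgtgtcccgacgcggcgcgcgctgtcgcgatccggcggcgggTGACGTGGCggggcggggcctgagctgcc

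TGATGNAA was found in 2 of the 59 windows (3.39%), of *SLC1A3* and *SLC1A5*, against 3.14% of all 35116 windows. TGACNNNGC was found in 5 (8.47%), of *SLC1A3*, *SLC1A5*, *SLC3A2*, *SLC7A1* and *SLC7A6*, against 10.9%. Both shares are near those of all windows, and the 2 motifs overlapped in none of the 59. In the windows printed, the match starts 97 bases before the start in *SLC1A5*, 37 in *SLC3A2* and 85 in *SLC7A1*, and *SLC7A6* has a pair, at 197 and 29. A match is a description of the letters only. The 4 genes did not move alike between the replicates: *SLC3A2* and *SLC7A1* were within 1.10-fold, *SLC7A6* was higher in replicate 2 and *SLC1A5* lower.

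The sodium-coupled neutral transporters of the SLC38A family carry glutamine, alanine and asparagine. The genes *SLC38A1*, *SLC38A2* and *SLC38A4*, which follow each other among the protein-coding genes of their chromosome, encode its system A members SNAT1, SNAT2 and SNAT4. *SLC38A1* had 270 and 252 at 1 of its 2 probes, 1.07-fold apart. *SLC38A2*, which cells induce when amino acids run short, had 161 on replicate 1 and 410 on replicate 2, and was 2.54-fold higher in replicate 2 (286 ± 176). *SLC38A4*, best known from liver and placenta, had 483 and 238, and was 2.02-fold lower in replicate 2. The 3 neighbouring genes thus showed a small, a positive and a negative difference. The liver and gut markers, of which 4 of 4 were above background, summed to 2579 on replicate 1 and 3624 on replicate 2, with *ALB*, *AFP* and *APOA2* higher in replicate 2 and *APOA1* lower. Their part in the *SLC38A4* level was not tested.

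The system N members *SLC38A3* and *SLC38A5*, whose proteins can move glutamine out of cells as well as in, were lower in replicate 2. *SLC38A3* (SNAT3) had 82.7 and 37.1, a 2.23-fold difference. *SLC38A5* (SNAT5), which in mice is known for its part in alpha-cell growth when glucagon signalling is blocked, had 38.0 and 22.6, a 1.68-fold difference. *SLC38A8*, another member of the family, which is mutated in foveal hypoplasia, had 38.2 and 19.2, and at 1.99-fold it lay just under the 2-fold line.

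Lysosomal members of the family were also detected. *SLC38A9*, the arginine sensor that signals from the lysosome to mTORC1, had 59.3 on replicate 1 and 150 on replicate 2, 2.53-fold higher in replicate 2. *SLC38A7*, which exports glutamine from lysosomes, had 53.3 and 32.7, 1.63-fold lower. Of the remaining members, *SLC38A6* had 41.2 and 95.3, 2.31-fold higher in replicate 2. *SLC38A10* had 70.0 and 63.2 at 1 of 3 probes, while another probe had 97.1 and 0.301 and so was above background on replicate 1 only. *SLC38A11* had 33.4 and 14.6, above background on replicate 1 only and at least 2.11-fold lower in replicate 2. *SLC38A12*, a symbol that was not on the lists of roles, had 2.46 and 5.91.

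A list of genes that sense amino acids for mTORC1 gives the context of *SLC38A9*. Of its 15 measured genes 11 passed on both arrays, and 2 of these were 2-fold or more higher in replicate 2 and none lower. Of all genes 46.9% passed, and of those 13.5% were 2-fold or more higher and 10.9% lower, so the difference counts are near the background. *SESN1*, a stress-induced sestrin, had 181 and 258, and the leucine sensor *SESN2* had 55.8 and 29.2. *SESN3* was above background on replicate 2 only and the arginine sensor *CASTOR1* on replicate 1 only. The pair past 2-fold, named after their values were seen, were the Rag GTPase *RRAGC* with 92.5 and 205 and the Ragulator subunit *LAMTOR3* with 196 and 502.

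The proton-coupled SLC36A family gave 2 detected genes. *SLC36A1*, which moves small amino acids out of lysosomes and across the intestinal surface, had 21.2 and 39.7, 1.88-fold higher in replicate 2. *SLC36A4*, a high-affinity carrier of proline and tryptophan, had 58.0 and 81.2 at 1 of its 2 probes. Its other probe had 12.2 and 14.6. *SLC36A2*, the renal glycine and proline carrier, and *SLC36A3* were not above background on either array.

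**Figure D2:**
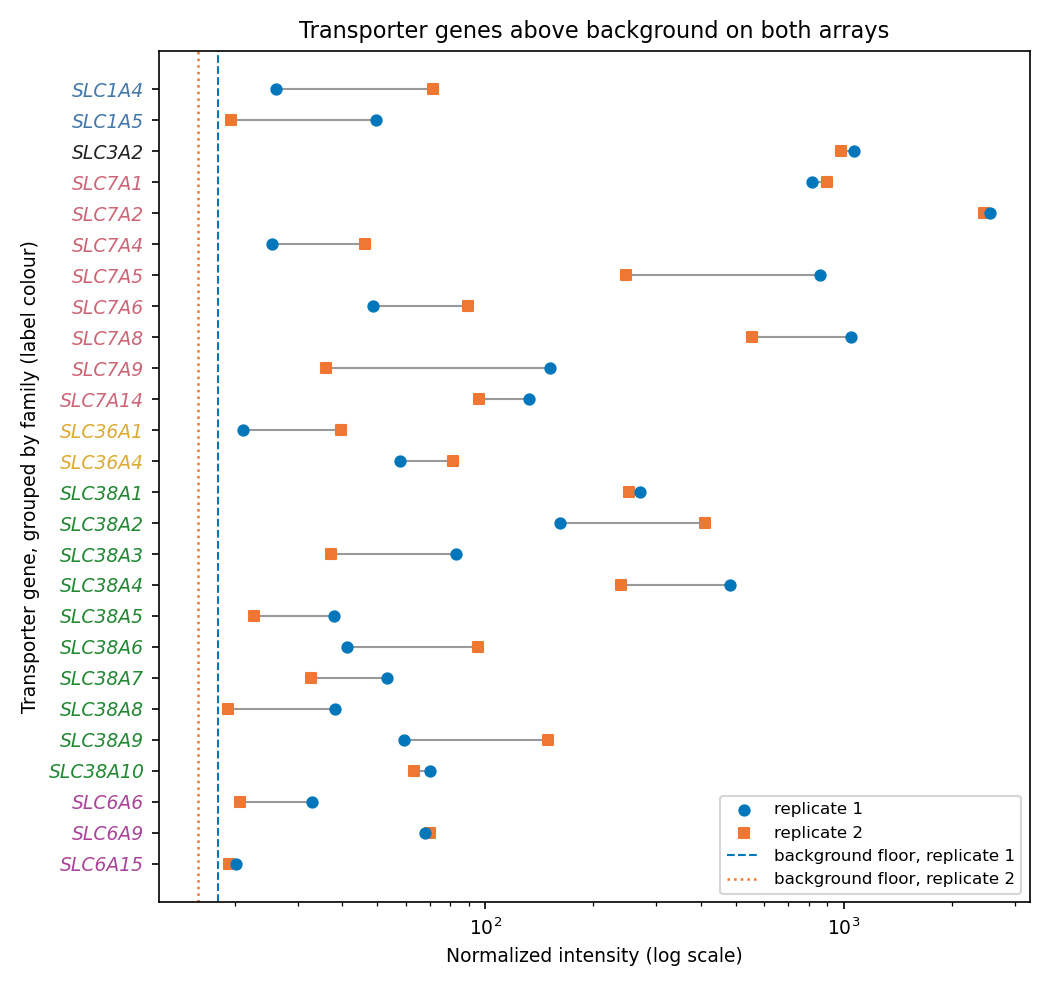
Normalized intensity (horizontal axis, log scale) of the 26 transporter genes above background on both arrays, with 1 circle for replicate 1 and 1 square for replicate 2 and a grey line between them, and the background floor of each array as a vertical line. Genes are grouped by family, in the colour of their labels. *SLC3A2*, *SLC7A1*, *SLC7A2* and *SLC38A1* have their points close together, while *SLC7A5* (859 and 247) and *SLC7A9* (152 and 35.9) have theirs far apart.

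The SLC1A family splits by substrate. The neutral exchangers were both detected, close to the floor and in opposite directions. *SLC1A4* (ASCT1), which carries serine and alanine, had 26.1 on replicate 1 and 71.4 on replicate 2, 2.74-fold higher in replicate 2. *SLC1A5* (ASCT2), the glutamine exchanger whose window is printed above, had 49.5 and 19.5, 2.54-fold lower in replicate 2. Of the 5 glutamate and aspartate transporters none was above background on both arrays. *SLC1A3*, the astrocyte transporter GLAST, had 1.58 and 46.5, above background on replicate 2 only and at least 2.58-fold higher there. The defining glial markers *GFAP*, *AQP4* and *S100B* were above background on neither array, and the 3 summed to 2.80 and -6.08. *SLC1A2*, which clears most synaptic glutamate in the brain, had -0.997 and -4.52. *SLC1A1*, the glutamate and cysteine transporter of neurons and epithelia, had -0.523 and 10.5. *SLC1A6* and *SLC1A7*, of Purkinje cells and retina, were at most at 12.3.

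Of the enzymes that use or make glutamate, glutamine or GABA, 8 of 10 measured genes were above background, against 46.9% of all genes. Among these, 1 was 2-fold or more higher in replicate 2, near the 13.5% of all genes. *GLUD1*, glutamate dehydrogenase, had 1653 and 963. *GLUL*, glutamine synthetase, had 24.2 and 29.3 at 1 of its 4 probes, and the aspartate aminotransferase *GOT1* had 346 and 618. The gene past 2-fold, named after its values were seen, was *GAD2*, which makes GABA, with 202 and 428. Of the vesicular transmitter transporters 3 of 7 (42.9%) were above background, near the 46.9% of all genes. *SLC17A6*, which loads glutamate into vesicles, had 230 and 570, and *SLC17A8*, with the same task, 138 and 104. The vesicular GABA transporter *SLC32A1* had 2.28 and -8.20. The vesicular monoamine transporter *SLC18A1* had 382 and 555, and its relative *SLC18A2* had -3.21 and -5.25. Of the other two, *SLC17A7* was above background on replicate 1 only and *SLC18A3* on neither.

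The transmitter transporters of the SLC6A family were in most cases at background. None of the 3 measured GABA and betaine transporters was above it on either array: *SLC6A11* (GAT3) had 8.38 and 1.68, *SLC6A12* (BGT1) 10.02 and 11.5, and *SLC6A13* (GAT2) 0.679 and 0.349. The serotonin transporter *SLC6A4* had 11.7 and 6.79 and the dopamine transporter *SLC6A3* -1.47 and -7.58. These values lie below the floors of 18.01 and 15.9. The noradrenaline transporter *SLC6A2* had 8.42 and 32.9, so it was above background on replicate 2 only and at least 1.83-fold higher there. For the enterochromaffin markers, which include the serotonin enzyme gene *TPH1* at 71.7 and 275, the summed level was 2247 on replicate 1 and 3581 on replicate 2.

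The glycine transporters gave 1 gene of 2. *SLC6A9* (GlyT1) had 67.7 and 70.2, the smallest difference of all detected members at 1.04-fold, at 1 of its 3 probes. Its other probes reached at most 8.23. *SLC6A5* (GlyT2), of glycinergic neurons, had -3.93 and 3.70. The taurine transporter *SLC6A6* had 32.9 and 20.7, 1.59-fold lower in replicate 2. The creatine transporter *SLC6A8* had 28.5 and 15.5, above background on replicate 1 only and at least 1.80-fold lower in replicate 2. It has a near-identical pseudogene, *SLC6A10P*, which the rule left out and which had 101 and 75.8 at 1 of its 2 probes, so that the copies may not be told apart.

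Of the 8 SLC6A genes for neutral amino acids, proline and orphan substrates, *SLC6A15* alone was above background on both arrays. It encodes a brain carrier of branched-chain amino acids and proline, and had 20.2 and 19.2, just above the floors. A second probe of it had 15.5 and 32.6, above background on replicate 2 only. *SLC6A19*, which takes up neutral amino acids in intestine and kidney and is mutated in Hartnup disease, had -3.90 and 1.78. *SLC6A20*, a proline carrier of the same epithelia, was at most at 11.4 over 3 probes, and *SLC6A18*, its kidney relative, had 9.91 and -8.44. *CLTRN* encodes collectrin, the partner that the kidney transporter needs at the cell surface in mice, and had 2.05 and 9.59. *SLC6A7*, *SLC6A14*, *SLC6A16* and *SLC6A17* were above background on neither array, with the highest value, 17.3 on replicate 1, at *SLC6A16*.

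Amino acid carriers of other families were measured as well. Of 7 measured genes, the list of other transporters and partners had 6 above background, all but *CLTRN*, against 46.9% of all genes. *SLC16A10*, which lets aromatic amino acids leave cells, had 43.2 and 114, 2.65-fold higher in replicate 2. *SLC43A1* (LAT3), a facilitator of leucine and other large neutral amino acids, had 74.8 and 83.8. *SLC43A2* (LAT4), a facilitator of the same substrates, had 202 and 62.7 and was 3.23-fold lower in replicate 2, where *SLC7A5* was also the lower. Of 9 measured receptors for GABA, glutamate and glycine 3 (33.3%) were above background on both arrays, against 46.9% of all genes. They were *GABBR2* (92.4 and 130), *GRIA2* (90.8 and 204) and *GRM4* (264 and 66.1).

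The differences between the replicates were then set beside those of all genes. Of the 26 detected transporters, 9 (34.6%) differed by 2-fold or more, against 24.5% of all 9393 genes above background. Of these 4 were higher in replicate 2 (*SLC1A4*, *SLC38A2*, *SLC38A9* and *SLC38A6*), against 13.5% of all genes, and 5 were lower (*SLC7A9*, *SLC7A5*, *SLC1A5*, *SLC38A3* and *SLC38A4*), against 10.9%. The median absolute log2 difference was 0.87, against 0.56 for all genes. With sign, replicate 2 minus replicate 1, the median was -0.11 against 0.21, and 16 of the 26 were lower in replicate 2 (61.5%) against 39.1% of all genes. After 50 was added to each intensity ahead of the logarithm, only 3 transporters, *SLC38A2*, *SLC7A5* and *SLC7A9*, differed by 2-fold or more. That is 11.5% of the 26, against 11.1% of all genes, so the larger share among the transporters was not seen on this scale. These counts describe 1 array per replicate and have no replicate check.

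By contrast 7 of the 26 (26.9%) agreed within 1.2-fold, against 24.7% of all genes. At the probes read, they were *SLC3A2*, *SLC7A1*, *SLC7A2*, *SLC38A1*, *SLC38A10*, *SLC6A9* and *SLC6A15*. At another probe each, *SLC38A10* (97.1 and 0.301) and *SLC3A2* (32.3 and -2.50) were above background on replicate 1 only. There the arrays were at least 6.12-fold and 2.04-fold apart. The call for *SLC6A15* depends on its probe: with the floor at the 90th percentile its other probe (15.5 and 32.6) is read, and its log2 difference turns from -0.07 to 1.07. The median log2 difference over all probes above background was 0.18, and after it was taken away *SLC7A1* changed from 0.13 to -0.05 and *SLC6A9* from 0.05 to -0.13, while the other 24 kept their sign. In the same step *SLC7A8* and *SLC38A8* passed 2-fold, at -1.10 and -1.18. *ASNS*, asparagine synthetase, was named after its values were seen and is well known for its induction with amino acid lack. It had 1476 and 776, lower in replicate 2 as were *SLC7A5* and *SLC1A5*, whereas *SLC38A2* and *SLC1A4* were higher. *SLC3A2* was 1.08-fold apart, and *SLC7A11* was above background on neither array. Whether amino acid lack had a part in any of these was not tested.

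**Figure D3:**
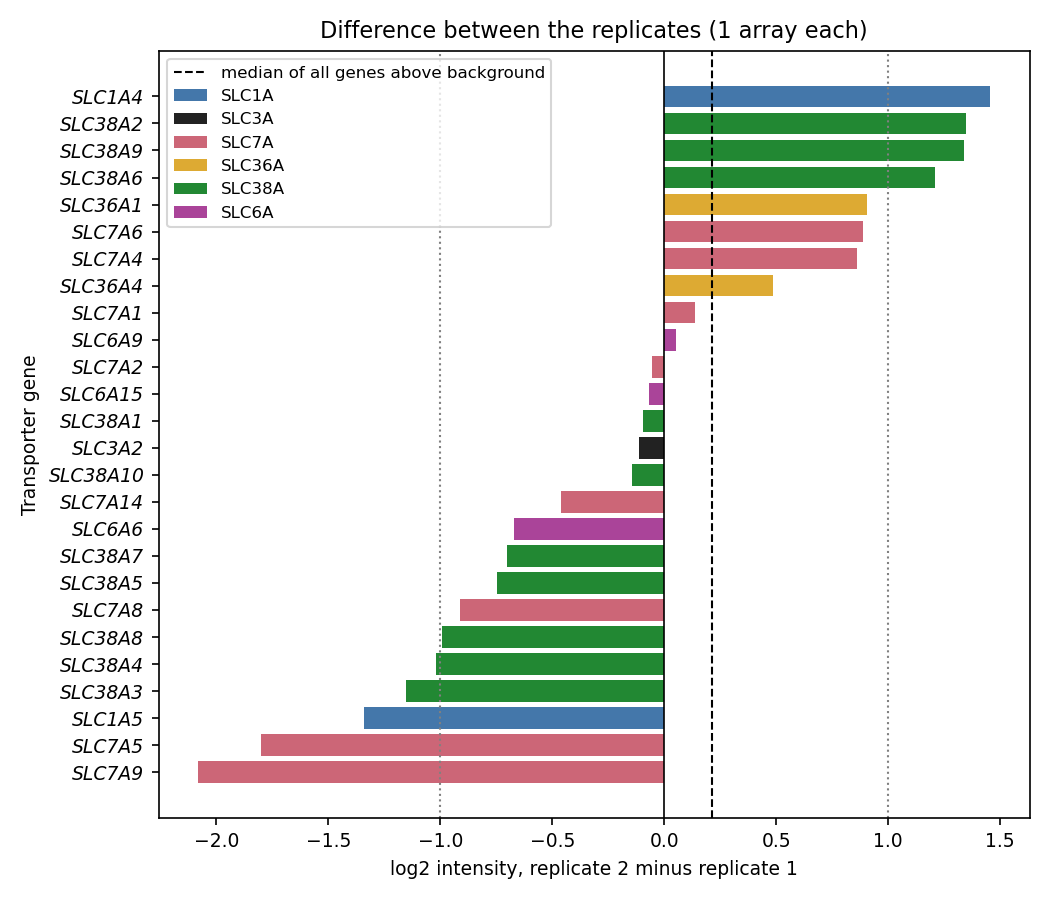
Difference of log2 intensity between the replicates (horizontal axis, replicate 2 minus replicate 1) for the 26 transporter genes above background on both arrays, with 1 bar a gene, coloured by family, dotted lines at 2-fold and a dashed line at the median of all 9393 genes above background (0.21). The bars run from -2.08 at *SLC7A9* to 1.45 at *SLC1A4*.

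The probe used decided whether several genes counted as detected. Of the 55 genes, 43 had 1 probe and 12 had several. Of these 12, 9 had exactly 1 probe above background on both arrays, against 28.9% of the 6691 named genes with several probes. In 3 genes, *SLC36A3*, *SLC6A20* and *SLC7A3*, no probe passed, against 43.5%, and in none did every probe pass, against 18.2%. At *SLC7A2* the detected probe had 2559 and 2464 and the others stayed at or under 3.18, and at *SLC7A8* it had 1046 and 555 and the others stayed at or under 8.79. Genes such as *SLC7A11*, with 1 probe that was not above background, have no second probe here. Among the probes that the rule left out, 1 of 3 annotated to the pseudogene *SLC7A5P2* had 13236 and 13053 and the others at most 4.21. The pseudogene is a copy of part of *SLC7A5*, whose own probe differed between the replicates, and whether the probe sees other transcripts was not tested.

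**Figure D4:**
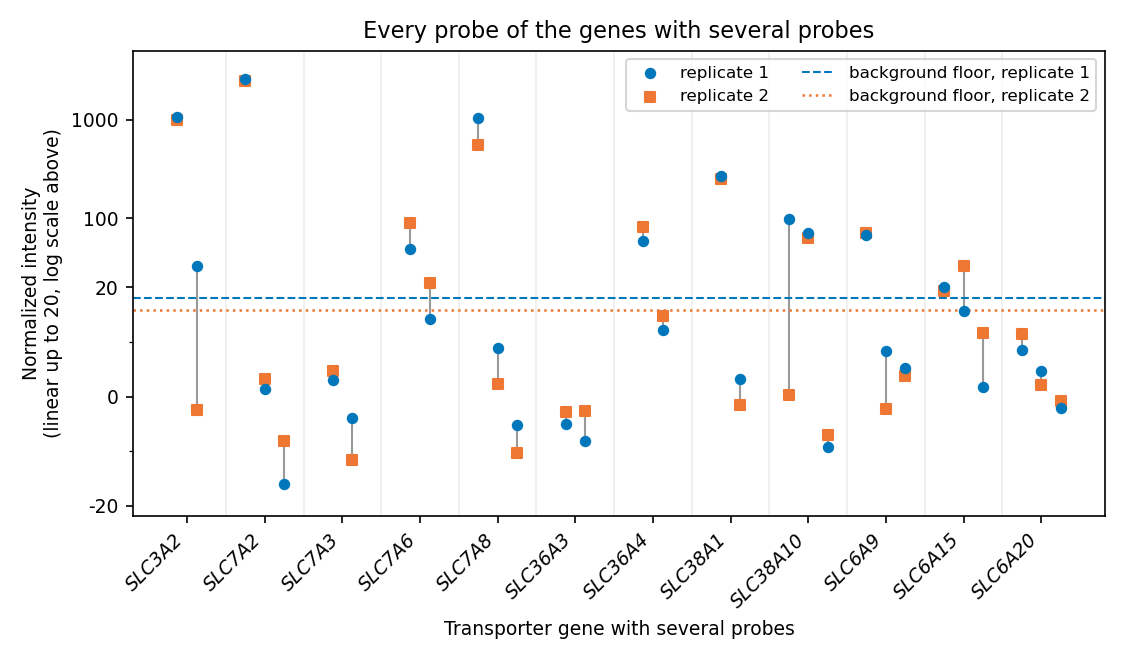
Normalized intensity (vertical axis, linear up to 20 and on a log scale above) of all 30 probes of the 12 transporter genes with several probes, with 1 circle for replicate 1 and 1 square for replicate 2 joined for each probe, and the background floors as horizontal lines. In 9 genes exactly 1 probe lies above the floors on both arrays.

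Some calls lie close to the floor. The detected genes nearest to it on replicate 2 were *SLC38A8* (19.2), *SLC6A15* (19.2), *SLC1A5* (19.5) and *SLC6A6* (20.7), and those just outside were *SLC6A8* (15.5) and *SLC38A11* (14.6). With the floor at the 99th percentile of the olfactory receptor probes, 32.3 and 27.4, 18 of the 55 transporters remained, against 40.6% of all genes. At that floor the share of the transporters was below that of all genes. *SLC1A4*, *SLC1A5*, *SLC36A1*, *SLC38A5*, *SLC38A8*, *SLC6A15*, *SLC6A6* and *SLC7A4* were no longer above background.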

How the data were processed

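The values are intensities that the authors deposited, 1 per probe and array, on a linear scale. GenomeStudio is named in the submitters' processing notes, and the series design text says that the arrays were normalized together with published ones. The deposited intensities reach -22.6, and the sorted values of the 2 arrays differ by at most 0.155, as after background subtraction and quantile normalization. A change shared by all genes can therefore not be seen. Detection p-values were not used here.

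Gene symbols came from the platform annotation at GEO: 30113 with 1 gene, 8 with several (unnamed) and 17202 not listed. They were updated through Entrez identifiers in a RefSeq table for 30074. The files name no genome build, and only the promoter windows carry coordinates, on GRCh38.p14. Values under the floor were set to it before log2. Folds are given where both arrays were above background, and otherwise as bounds against the higher of the floor and the probe's own value. Python 3.11.15, pandas 2.3.3, numpy 2.4.6 and matplotlib 3.10.9 were used, and the code of the calls was run on simulated data. Expressed probes there were bright and had no noise between the arrays, so that run does not bear on dim probes. Alternatives covered the floor, the probe, an offset, the normalization, centring and each array alone. The number of arrays limits the precision.

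Members, roles, context lists and markers were chosen with earlier results of these data known. All members could be named, with up to 4 genes of each context list in written order and those behind a count of 5 or fewer. *ASNS* was named outside this rule, after its values were seen.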

Additional observations from a re-analysis of the deposited data

How the results depend on the processing

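No paired analysis was possible because there is 1 group. The 26 of 55 transporter genes above background became 17 of 55 when every probe of a gene had to pass, against 34.1% of all genes. They numbered 28 with either replicate left out, and from 18 to 28 over the other floors and the median probe. The median probe gave 21 of 55, against 41.7% of all genes, and *SLC38A10*, *SLC6A15*, *SLC6A9*, *SLC7A2* and *SLC7A8* were lost. The 9 genes at 2-fold or more became 3 with the offset of 50, which shrinks differences of dim probes, against 11.1% of all genes. With the other alternatives they numbered 7 to 11. The median log2 difference stayed below 0, from -0.29 to -0.08. The 9 genes have 1 probe each, so the other floors and the median probe return the same differences. The offset, the normalization and the centring cannot turn a 2-fold difference round. That all 61 recomputed values kept their direction was therefore fixed beforehand and is no check. The alternative that asks every detected probe of a gene to differ was not run, because no member had more than 1 probe above background on both arrays. Dim probes limit the folds of genes near the floor.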
